A study of Mus musculus with 20 samples.

Results

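The genes described are the leptin receptor and 8 genes that carry or restrain its signal in AgRP neurons. They are Lepr (the receptor), Jak2 and Sh2b1 (kinase and adaptor), Stat3 (transcription factor), Socs3, Socs2 and Cish (feedback inhibitors), and Ptpn1 and Ptpn2 (tyrosine phosphatases). They were taken by gene symbol from a table of read counts for 23129 named genes. All 9 were found, and all 9 were among the 13237 genes with enough reads to be tested. AgRP neurons are hypothalamic cells that release agouti-related peptide and neuropeptide Y and promote feeding.

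All mice were C57BL/6, between 25 and 30 days old, and had AgRP-Cre/+ and Ai9/+, a Cre driver and a red tdTomato reporter that Cre switches on. Wild-type mice had these alleles alone, and their conditional knockout (cKO) littermates were also Phf6 flox/y, so both genotypes carried Cre. Phf6 is an X-linked gene for a chromatin-associated protein, and its floxed copy is cut only in cells that have expressed Agrp. Fed mice kept their food, and fasted mice had only water from 5 pm of the previous day. Each of the 4 groups, wild type or cKO and fed or fasted, had 5 libraries made from 1000 sorted tdTomato+ cells each. The labels do not say whether each library was 1 mouse, so p-values measure the spread between these libraries, part of which may be technical.

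Leptin is a hormone of fat tissue whose blood level falls in fasting. Its receptor has no kinase of its own and works through the bound kinase JAK2, which phosphorylates the receptor and STAT3. STAT3 then enters the nucleus and switches on genes that include Socs3, whose protein binds the receptor complex and shuts it down, while the phosphatases PTP1B (from Ptpn1) and TCPTP (from Ptpn2) remove the phosphates. In AgRP neurons leptin lowers activity and the expression of Agrp and Npy. Counts of RNA do not measure phosphorylation or leptin, so what follows is about transcript levels of the pathway's parts.

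Promoter sequence is shown for the feedback genes Socs3 and Cish, the 2 of the 9 genes in whose windows the motif below was found. Both were lower in fasted mice, but so were Sh2b1, Stat3 and Jak2, whose windows held no match. STAT proteins are known to bind paired half-sites of the form TTCNNNGAA, which reads the same on both strands, and the search therefore covered both. It was run in RefSeq windows of 300 bases, from 250 before to 50 after each annotated start, on GRCm38.p6. Of the 9 genes, 7 had a window in the set searched, and the motif was found in the windows of Socs3 and Cish. Socs2 and Ptpn2 had no window in that set, so whether their promoters hold the motif was not tested. Capitals mark each match, and both stretches read 5′ to 3′ in the direction of transcription.
Socs3, minus strand, chr11:117969367-117969616: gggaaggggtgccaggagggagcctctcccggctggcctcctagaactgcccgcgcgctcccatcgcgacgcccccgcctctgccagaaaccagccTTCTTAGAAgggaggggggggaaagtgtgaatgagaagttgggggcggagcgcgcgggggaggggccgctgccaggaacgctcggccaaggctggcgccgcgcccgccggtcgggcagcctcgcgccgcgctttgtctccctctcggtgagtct
Cish, plus strand, chr9:107296559-107296678: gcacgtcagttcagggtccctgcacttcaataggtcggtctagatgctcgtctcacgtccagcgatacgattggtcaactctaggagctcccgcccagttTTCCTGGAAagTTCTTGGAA
The Socs3 stretch ends at the last base before the RefSeq start, and its match, TTCTTAGAA, begins 154 bases upstream of that start. The Cish stretch runs from 100 bases before to 20 bases after the start, and its matches, TTCCTGGAA and TTCTTGGAA, begin at bases 1 and 12 of the transcript. Both stretches lie within the longer gene spans that GENCODE M21 draws from other transcript models. At least 1 match was found in 2726 of the 32851 windows searched (8.3%), and at least 2 in 150 (0.457%). The set searched did not cover every gene. The windows of Lepr, Jak2, Sh2b1, Stat3 and Ptpn1 held none, and a match describes letters, not binding.

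Library totals were 10604977 to 13573524 counts in fed and 8494499 to 10000278 in fasted libraries. Phf6 was at 264 to 292 CPM (counts scaled to a common library total) in fed wild type and 65.0 to 76.3 CPM in fed cKO, and at 116 to 143 CPM against 53.6 to 71.3 CPM in fasted mice, so no library went against its genotype. The 6 AgRP neuron markers (Agrp, Npy, Corin, Otp, Acvr1c and Ghsr) summed to 20180 to 84400 CPM. Of the markers of other cells, the 6 astrocyte markers reached at most 20.4 CPM and the 5 endothelial ones 10.8 CPM. The 5 microglial markers reached 1.32 CPM, with Tmem119 at 0 in all libraries. Other glial markers were not as low: the 5 oligodendrocyte markers reached 90.8 CPM and the 7 tanycyte and ependyma markers 58.65 CPM. Those of other neurons were higher: the 3 Pomc neuron markers (Pomc, Cartpt and Prdm12) reached 1097 CPM and 7 neuropeptide genes of other hypothalamic neurons 1056 CPM, mostly from Sst. Fasted replicates 1 and 2 stood apart from replicates 3 to 5 in both genotypes, with no overlap for 48% of all tested genes in wild type and 34.4% in cKO, and the labels name no batch for them. Among the 9 genes this held for 6 in fasted wild type and 7 in fasted cKO. Results are therefore also given with either set alone where it matters. In bulk libraries such as these, fewer cells of a type and less RNA per cell cannot be told apart.

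Level per length is CPM per kilobase of exon, with the exons of all annotated transcripts of a gene merged. In fed wild type, the order of the 9 genes by this measure ran from Stat3 at 20.5 ± 0.98 (SD, n = 5) to Cish at 3.05 ± 0.35. Ptpn2 was the next highest at 15.0 ± 0.94, followed by Socs2 at 8.0 ± 0.26. Lepr came next at 6.71 ± 0.93, with Ptpn1 at 6.45, Socs3 at 5.73, Sh2b1 at 4.91 and Jak2 at 4.32 below it. From Lepr down to Jak2, each gene's range over the 5 libraries overlapped that of its neighbour in the order. By this measure the receptor and its inhibitor Socs3 lay close together in fed wild type, below Stat3, Ptpn2 and Socs2. The order depends on the lengths used, since merged exons span 6.42 kilobases in Cish and 2.89 in Socs3. In CPM alone, fed wild-type Lepr averaged 47.3, Ptpn2 46.9, Cish 19.6 and Socs3 16.6.
In both fasted groups Lepr headed the order of means, at 29.2 ± 6.3 CPM per kilobase in wild type and 29.6 ± 7.3 in cKO, ahead of Ptpn2 at 20.8 and 24.2 and Stat3 at 13.7 and 14.8. In fasted cKO the ranges of Lepr (23.29 to 38.35) and Ptpn2 (20.5 to 27.93) overlapped. Socs3 was last in both fasted groups, at 0.744 in wild type and 0.386 in cKO. In fed cKO Lepr, at 12.8, lay beside Ptpn2, at 13.1, while Socs3, at 2.61, was last beside Cish, at 2.67.

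**Figure D1:**
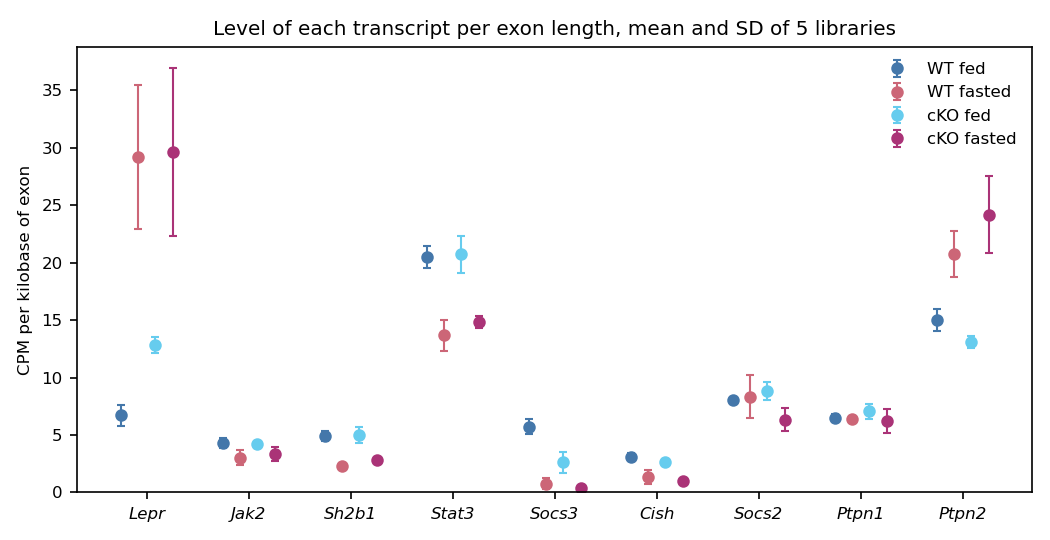
Level of each of the 9 genes per length (CPM per kilobase of exon, linear axis from 0) in the 4 groups, coloured by group; points are means and bars are the SD of 5 libraries. By this measure Lepr moves from the middle of the order in fed wild type (6.71) to its top in fasted mice (29.2 and 29.6). Socs3 moves to the bottom (0.744 and 0.386), and the order depends on the lengths used.

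Fasting of wild-type mice raised the receptor and lowered its kinase, adaptor, transcription factor and 2 of 3 feedback inhibitors. Lepr rose 4.35-fold, Ptpn2 also rose, Jak2, Sh2b1, Stat3, Socs3 and Cish fell, and Socs2 and Ptpn1 did not pass the test. The test was edgeR's quasi-likelihood test with Benjamini-Hochberg adjustment over the whole table, and calls were made at an adjusted p under 0.05. It called 60.9% of all tested genes in this comparison (29.6% rose and 31.3% fell), so a count of 2 rises and 5 falls among 9 genes does not set them apart, and the sizes carry the description. The groups did not overlap for 6 of the 9 genes, beside 45% of all tested genes. The median log2 change was -0.52 for the 9 genes and -0.03 over all genes tested.

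Lepr, the receptor, spans chr4:101717404-101815352 on the plus strand (GRCm38, GENCODE M21). That annotation lists 7 transcripts of Lepr, and counts per gene do not tell forms of the receptor apart. In fed wild type its 5 libraries were at 53.6, 51.5, 48.3, 36.6 and 46.4 CPM, and in fasted wild type at 245, 262, 185, 171 and 167 CPM. Every fasted library was above every fed one, and replicates 1 and 2 were the highest of the fasted libraries. The log2 change was 2.12 ± 0.14 (SE; edgeR adjusted p = 2.46e-13), and it was 2.40 with fasted replicates 1 and 2 alone and 1.88 with replicates 3 to 5 alone.

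Jak2, the receptor-bound kinase, was at 21.7 ± 2.2 CPM fed and 15.2 ± 3.2 CPM fasted (SD, n = 5 each), with overlapping ranges and a log2 change of -0.52 ± 0.14 (edgeR adjusted p = 0.00157). Sh2b1, an adaptor that enhances JAK2 activity, went from 19.3 ± 1.8 to 9.20 ± 0.96 CPM without overlap, a log2 change of -1.07 ± 0.12 (edgeR adjusted p = 2.05e-08). With offsets for GC content and gene length the Sh2b1 change was smaller, at -0.73 (edgeR adjusted p = 1.37e-05). Stat3, the transcription factor that leptin acts through, went from 195 ± 9.3 to 130 ± 13 CPM, also without overlap and with a log2 change of -0.58 ± 0.07 (edgeR adjusted p = 1.04e-08). The 3 signalling genes thus fell while the receptor rose. Jak2 lies at chr19:29251828-29313080 (plus), Sh2b1 at chr7:126466994-126475424 (minus) and Stat3 at chr11:100885098-100939540 (minus). The kits do not mark strand, so reads from the 0.756% of Stat3 exon bases shared with Stat5a on the other strand cannot be assigned.

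Socs3, the inhibitor that STAT3 itself induces, lies at chr11:117966079-117970047 on the minus strand and had the largest fold of the 9 genes. Its fed wild-type libraries were at 16.6, 13.5, 17.7, 18.4 and 16.7 CPM, which rest on 188 to 248 reads each. Fasted wild-type libraries were at 0.818, 1.16, 1.95, 4.39 and 2.43 CPM, from 7, 9, 18, 39 and 22 reads. No fasted library came near the fed range, and replicates 1 and 2 were the lowest. The log2 change was -2.93 ± 0.29, or 7.6-fold lower (edgeR adjusted p = 8.55e-10), and it was -4.08 with fasted replicates 1 and 2 alone and -2.50 with replicates 3 to 5 alone.

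Cish, the SOCS-family inhibitor best known as a STAT5 target, lies at chr9:107296026-107302784 on the plus strand. Its fed wild-type libraries were at 21.1, 16.3, 20.8, 18.2 and 21.5 CPM and its fasted ones at 4.33, 6.46, 8.14, 15.2 and 9.27 CPM. Fasted replicate 4 came closest to the fed range, with no overlap. Cish fell by 1.17 ± 0.20 on the log2 scale (edgeR adjusted p = 1.32e-05), and the log2 change was -1.88 with fasted replicates 1 and 2 alone and -0.85 with replicates 3 to 5 alone. Of its exon bases, 7.46% are shared with Gm17041 and 4.07% with Gm17040 on the other strand, and reads there cannot be assigned.

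Socs2, at chr10:95385362-95417180 (minus), encodes an inhibitor of growth hormone and STAT5 signalling. In fasted wild type its libraries were at 91.9, 105, 73.2, 65.7 and 62.3 CPM, against 76.3 ± 2.5 CPM (SD, n = 5) when fed. Fasted replicates 1 and 2 were above the fed mean and replicates 3 to 5 below it. The log2 change over all 5 was 0.06 with a 95% interval from -0.17 to 0.29 (edgeR adjusted p = 0.67), and the sets alone gave 0.35 (replicates 1 and 2; edgeR adjusted p = 0.000522) and -0.18 (replicates 3 to 5; edgeR adjusted p = 0.0329). The response of Socs2 to fasting in wild type therefore differed in direction between the sets.

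The phosphatases differed from each other. Ptpn1 (PTP1B), at chr2:167932057-167979385 (plus), was at 35.7 ± 1.9 CPM fed and 35.4 ± 1.3 CPM fasted (SD, n = 5 each), with a log2 difference of -0.01 and a 95% interval from -0.21 to 0.18 (edgeR adjusted p = 0.923). Ptpn2 (TCPTP), at chr18:67665511-67724595 (minus), went from 46.9 ± 2.9 to 64.8 ± 6.4 CPM without overlap, a log2 rise of 0.47 ± 0.09 (edgeR adjusted p = 3.26e-05). The Ptpn2 rise was smaller in size than the changes of Lepr, Socs3, Cish and Sh2b1.

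**Figure D2:**
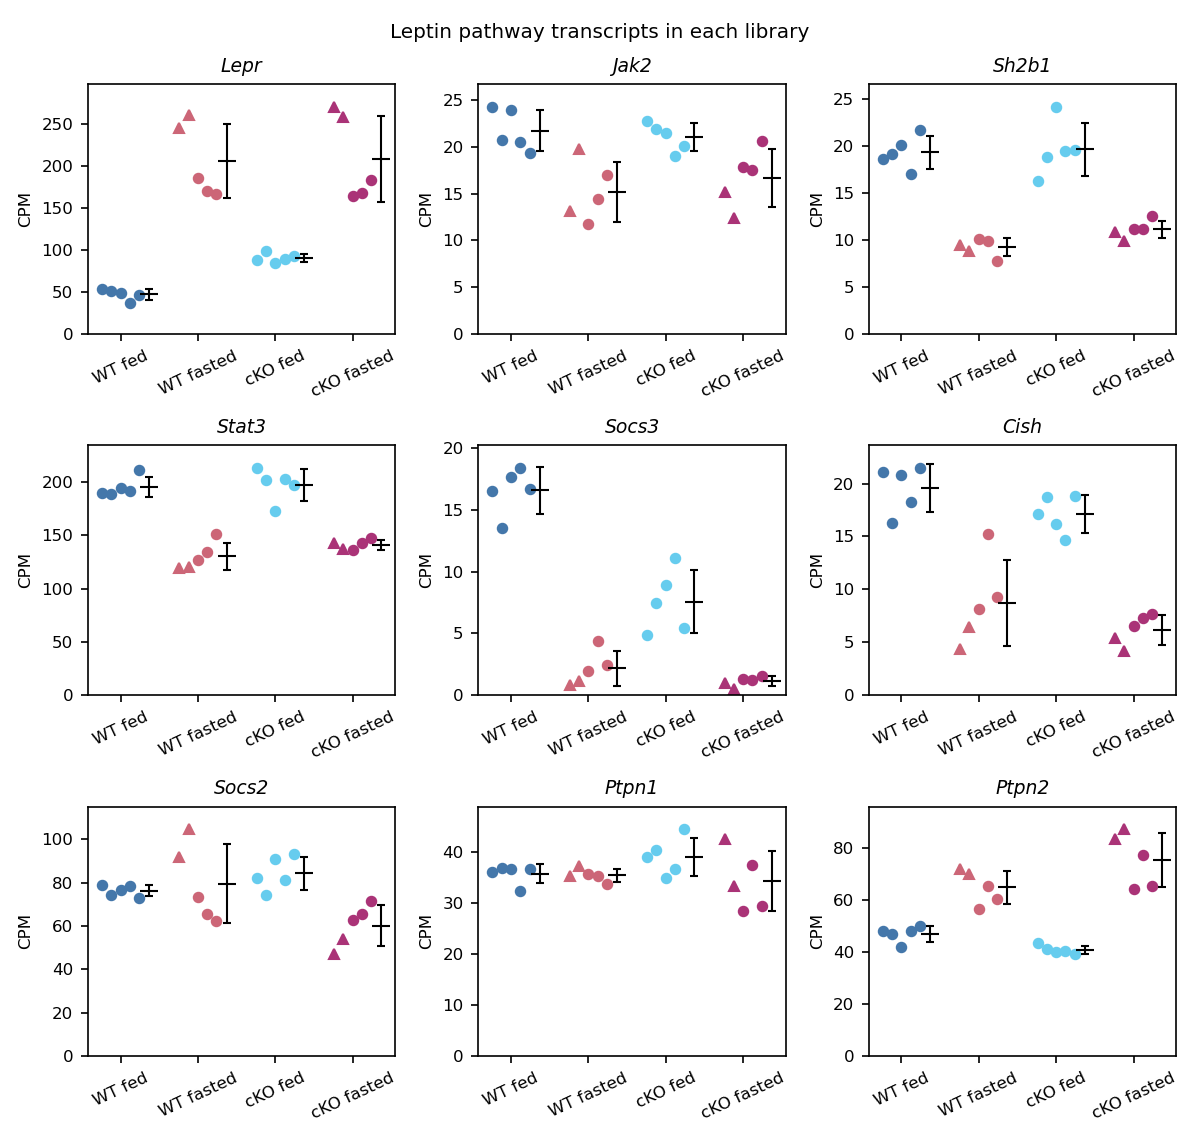
CPM of each of the 9 genes in every library, in 1 panel per gene with its own linear axis from 0; points are libraries, triangles are fasted replicates 1 and 2, and black marks show the group mean ± SD (n = 5). Lepr is highest in the fasted groups (206 and 209 CPM on average) and Socs3 is highest in fed wild type (16.6 CPM).

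Fasting of cKO mice changed the same pathway with a smaller rise of the receptor. Lepr and Ptpn2 rose, Jak2, Sh2b1, Stat3, Socs3, Socs2 and Cish fell, and Ptpn1 did not pass. Of all tested genes, 53.1% were called in this comparison (26% rose and 27% fell), beside 2 rises and 6 falls among the 9. The groups did not overlap for 7 of the 9, beside 39.6% of all tested genes. The median log2 change was -0.48 for the 9 genes and -0.03 over all genes tested.

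Lepr in fed cKO was at 87.7, 98.4, 84.8, 89.5 and 92.4 CPM and in fasted cKO at 270, 259, 164, 168 and 183 CPM. The groups did not overlap, and fasted replicates 1 and 2 were again the highest. The log2 change was 1.21 ± 0.13, or 2.31-fold (edgeR adjusted p = 1.46e-08), with 1.55 for fasted replicates 1 and 2 alone and 0.93 for replicates 3 to 5 alone.

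Socs3 in fed cKO was at 4.89, 7.45, 8.90, 11.1 and 5.41 CPM, from 56, 105, 127, 130 and 78 reads. In fasted cKO it was at 1.00, 0.506, 1.28, 1.25 and 1.55 CPM, from 8, 4, 11, 11 and 13 reads. All fasted libraries lay below the lowest fed one. The log2 change was -2.73 ± 0.33, or 6.65-fold lower (edgeR adjusted p = 5.58e-08).

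Cish in fed cKO was at 17.1, 18.7, 16.2, 14.7 and 18.9 CPM and in fasted cKO at 5.38, 4.17, 6.49, 7.26 and 7.64 CPM. The groups did not overlap, and the log2 change was -1.46 ± 0.21 (edgeR adjusted p = 1.26e-06). Socs2 went from 84.4 ± 7.7 CPM (SD, n = 5) in fed cKO to 47.1, 54.1, 62.6, 65.7 and 71.4 CPM in fasted cKO. Replicates 1 and 2 were here the lowest of the fasted libraries, the opposite of wild type, and the log2 change was -0.49 ± 0.11 (edgeR adjusted p = 0.000699).

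Sh2b1 fell by 0.82 ± 0.12 on the log2 scale in cKO (edgeR adjusted p = 2.03e-06) and Stat3 by 0.48 ± 0.07 (edgeR adjusted p = 4.18e-07), both without overlap. With offsets for GC content and gene length the Sh2b1 change was again smaller, at -0.49 (edgeR adjusted p = 0.00163). Ptpn2 rose from 40.8 ± 1.6 to 75.5 ± 10 CPM (SD, n = 5 each), a log2 change of 0.89 ± 0.09 (edgeR adjusted p = 1.41e-09). Jak2 fell by 0.33 ± 0.13 (edgeR adjusted p = 0.0403), and it no longer passed without fed cKO replicate 1, 2 or 3 or fasted cKO replicate 1 or 2 (edgeR adjusted p from 0.0655 to 0.137) or with fasted replicates 3 to 5 alone (log2 change -0.17, edgeR adjusted p = 0.278). Ptpn1 had a log2 difference of -0.19 with a 95% interval from -0.39 to 0.01 (edgeR adjusted p = 0.0984), and without fasted cKO replicate 1 it passed at -0.27 (edgeR adjusted p = 0.0163). Ptpn1 also passed with fasted replicates 3 to 5 alone (-0.29, edgeR adjusted p = 0.014) and with upper-quartile scaling (-0.23, edgeR adjusted p = 0.0445), but not with replicates 1 and 2 alone (-0.04, edgeR adjusted p = 0.791).

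Markers of other cells moved with fasting too. The 5 oligodendrocyte markers summed to 69.7 to 90.8 CPM in fed and 35.4 to 59.7 CPM in fasted libraries. Summed endothelial markers went from at most 0.643 CPM in fed to 1.58 to 3.86 CPM in fasted wild type. This came from Pecam1 (0.241 and 2.03 CPM on average), while Cldn5, Flt1, Kdr and Slco1a4 each averaged at most 0.125 CPM in either group. In cKO the 7 neuropeptide genes of other hypothalamic neurons went from 136 to 364 CPM fed to 499 to 1056 CPM fasted, and the Pomc neuron markers from 313 to 417 CPM to 440 to 1097 CPM. Pdyn averaged 8.52 and 14.1 CPM in fed wild type and cKO and 33.7 and 23.9 CPM when fasted, while the other markers of kisspeptin neurons, Kiss1 and Tac2, averaged at most 0.124 and 0 CPM outside fasted cKO. The 6 AgRP neuron markers went from 20180 to 30780 CPM fed to 50250 to 84400 CPM fasted. The part of these shifts in the changes of the 9 genes was not tested.

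In fed mice, loss of Phf6 moved the receptor and its inhibitor in opposite directions and was not seen to move the rest. Lepr was 1.91-fold higher and Socs3 2.20-fold lower in fed cKO than in fed wild type, and the other 7 did not pass. The test called 9.68% of all tested genes here (5.87% higher and 3.81% lower in cKO). The median log2 difference over all genes tested was 0.01.

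Lepr stood at 84.8 to 98.4 CPM in the 5 fed cKO libraries and at 36.6 to 53.6 CPM in the 5 fed wild-type libraries, a log2 difference of 0.94 ± 0.14 (edgeR adjusted p = 2.19e-05). Socs3 stood at 4.89 to 11.1 CPM in fed cKO and at 13.5 to 18.4 CPM in fed wild type, a log2 difference of -1.14 ± 0.24 (edgeR adjusted p = 0.00246). Neither gene's groups overlapped, beside 14.5% of all tested genes without overlap. Leaving out each fed library in turn left the Lepr difference between 0.86 and 0.98 and the Socs3 difference between -1.31 and -1.02, and the call held each time for both. Both differences have the direction that fasting gave in wild type, and fed cKO lay between fed and fasted wild type for both genes.

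The genes between receptor and feedback were close to wild type in fed cKO. Stat3 differed by 0.02 on the log2 scale with a 95% interval from -0.12 to 0.15, Jak2 by -0.05 with an interval from -0.31 to 0.22, and Sh2b1 by 0.03 with an interval from -0.21 to 0.26 (edgeR adjusted p = 0.915, 0.868 and 0.925). Cish, the other inhibitor that fell in fasting, differed by -0.19 with an interval from -0.58 to 0.19 (edgeR adjusted p = 0.586). These intervals leave room for differences of the size given by their bounds, and they exclude for Cish a drop as large as that of Socs3. Socs2 differed by 0.15 (edgeR adjusted p = 0.462), Ptpn1 by 0.13 (edgeR adjusted p = 0.44) and Ptpn2 by -0.20 with an interval from -0.38 to -0.03 (edgeR adjusted p = 0.15). With only the 2 fed groups in the model, Ptpn2 passed at -0.21 (edgeR adjusted p = 0.0241).
Summed markers of Pomc neurons and astrocytes were not higher in fed cKO: the 3 Pomc neuron markers summed to 313 to 417 CPM in fed cKO and 324 to 432 CPM in fed wild type, and the 6 astrocyte markers to 1.83 to 4.34 and 2.49 to 9.66 CPM. Microglial markers summed to 0.347 to 1.26 CPM in fed cKO and 0.143 to 0.215 CPM in fed wild type, with Tmem119 at 0. These sums came mostly from P2ry12, at 0.694 and 0.161 CPM on average. Markers of other hypothalamic neurons summed to 136 to 364 and 291 to 504 CPM. Pdyn was at 11.9 to 18.0 and 6.71 to 10.6 CPM, and the 6 AgRP neuron markers to 26170 to 30780 and 20180 to 22320 CPM. The part of these shifts in the differences of Lepr and Socs3 was not tested.

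**Figure D3:**
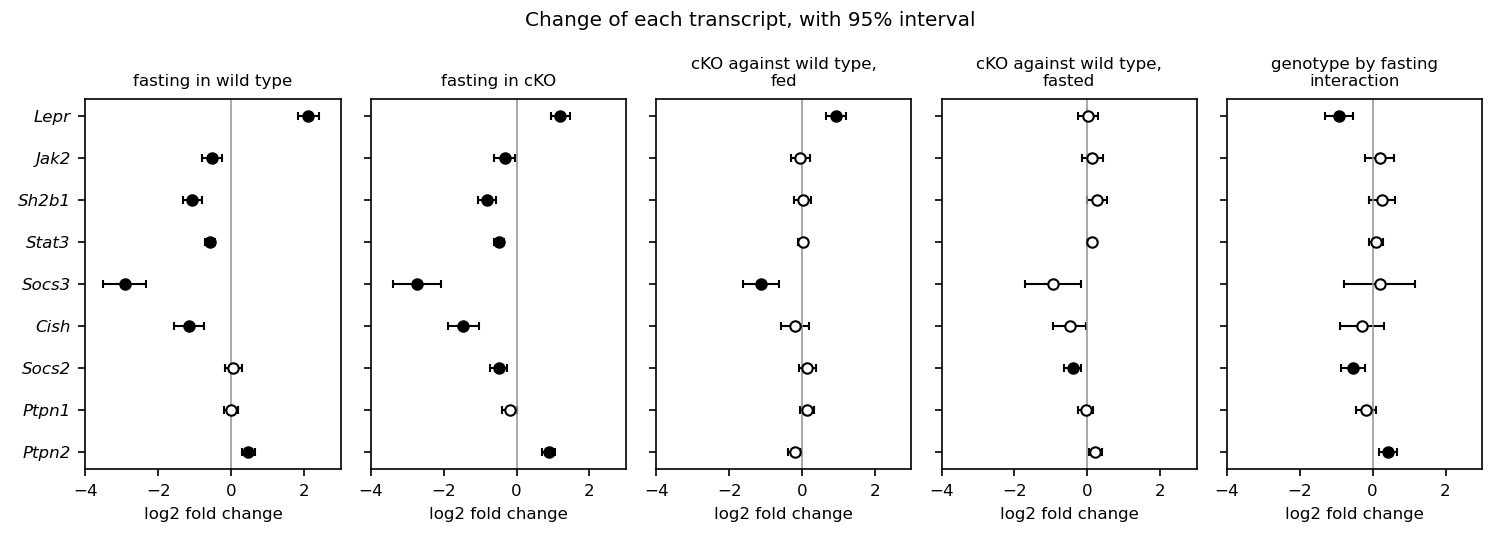
Log2 fold change with its 95% interval for each of the 9 genes in the 5 comparisons; filled points passed at an edgeR adjusted p under 0.05. In the fed genotype comparison the points for Lepr (0.94) and Socs3 (-1.14) are filled, and in the fasted one the point for Socs2 (-0.40).

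In fasted mice the difference in Lepr between genotypes was no longer seen. Lepr was at 206 ± 44 CPM in wild type and 209 ± 51 CPM in cKO (SD, n = 5 each), and the log2 difference was 0.02 with a 95% interval from -0.25 to 0.29 (edgeR adjusted p = 0.93). This interval excludes a difference as large as that of the fed groups. Socs2 was the 1 gene of the 9 that passed, at 79.6 ± 18 CPM in wild type and 60.2 ± 9.6 CPM in cKO (SD, n = 5 each), a log2 difference of -0.40 ± 0.12 (edgeR adjusted p = 0.0145). The test called 20.3% of all tested genes in this comparison (11.5% higher and 8.84% lower in cKO), so 1 of 9 is no more than the share over all genes. No gene of the 9 had groups without overlap, beside 8.96% of all tested genes.

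The Socs2 difference rested on fasted replicates 1 and 2. Socs2 averaged 98.3 CPM in wild type and 50.6 CPM in cKO in replicates 1 and 2, but 67.1 and 66.6 CPM in replicates 3 to 5. The log2 difference was -0.94 with replicates 1 and 2 alone (edgeR adjusted p = 1.44e-07) and -0.02 with replicates 3 to 5 alone (edgeR adjusted p = 0.904). Over all libraries it ceased to pass without fasted wild-type replicate 2 (-0.28, edgeR adjusted p = 0.0535), without fasted cKO replicate 1 (-0.32, edgeR adjusted p = 0.0516) and with only the 2 fasted groups in the model (-0.41, edgeR adjusted p = 0.0741).

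Socs3 averaged 2.15 ± 1.4 CPM in fasted wild type and 1.12 ± 0.39 CPM in fasted cKO (SD, n = 5 each), with overlapping ranges. The log2 difference was -0.94 ± 0.38 with a 95% interval from -1.72 to -0.17, and it missed the threshold (edgeR adjusted p = 0.078). It passed without fasted wild-type replicate 1 (-1.15, edgeR adjusted p = 0.0201) or 2 (-1.09, edgeR adjusted p = 0.0376), with fasted replicates 3 to 5 alone (-1.10, edgeR adjusted p = 0.0238) and with DESeq2's Wald test (-0.95, DESeq2 adjusted p = 0.0416). With fasted replicates 1 and 2 alone it was -0.36 (edgeR adjusted p = 0.762), and libraries with 4 to 39 reads limit this comparison.

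Cish differed by -0.49 on the log2 scale with a 95% interval from -0.95 to -0.03 (edgeR adjusted p = 0.124), and it passed without fasted wild-type replicate 1 (-0.66, edgeR adjusted p = 0.0171) and with fasted replicates 3 to 5 alone (-0.61, edgeR adjusted p = 0.02). Ptpn2 differed by 0.22 with an interval from 0.04 to 0.40 (edgeR adjusted p = 0.0685), and it passed without fasted wild-type replicate 1 or 2 or fasted cKO replicate 3 or 5 (edgeR adjusted p from 0.0266 to 0.0458). Neither can be called different or alike between fasted genotypes. Sh2b1 (0.27), Stat3 (0.12), Jak2 (0.14) and Ptpn1 (-0.05) had log2 differences that did not pass (edgeR adjusted p = 0.143, 0.223, 0.518 and 0.768).
The Pomc neuron markers summed to 440 to 1097 CPM in fasted cKO, highest in replicates 3 to 5 at 823 to 1097 CPM, and to 379 to 470 CPM in fasted wild type. Astrocyte markers were at 18.1 and 20.4 CPM in fasted wild-type replicates 1 and 2 and at 3.18 to 11.4 CPM in the other 8 fasted libraries. The part of either in these differences was not tested.

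The interaction of genotype with fasting, which asks whether the response to fasting itself differed, was called for 3 of the 9 genes, beside 17.3% of all tested genes (8.87% positive and 8.44% negative). For Lepr it was -0.92 ± 0.19 on the log2 scale (edgeR adjusted p = 0.00114), so the receptor rose less in cKO. Lepr started from a higher fed level in cKO and reached the same fasted range. Within the sets the interaction for Lepr was close to this, at -0.85 with fasted replicates 1 and 2 alone (edgeR adjusted p = 3.34e-06) and -0.96 with replicates 3 to 5 alone (edgeR adjusted p = 1.86e-08).

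For Ptpn2 the interaction was 0.42 ± 0.12 (edgeR adjusted p = 0.0156), a larger rise in cKO. It passed with either set of fasted replicates alone (0.49 and 0.38) but not with offsets for GC content and gene length (0.32, edgeR adjusted p = 0.0667). For Socs2 it was -0.54 ± 0.16 (edgeR adjusted p = 0.0177), with -1.08 for fasted replicates 1 and 2 alone (edgeR adjusted p = 6.27e-08) and -0.16 for replicates 3 to 5 alone (edgeR adjusted p = 0.284). The Socs2 interaction, like its fasted genotype difference, was thus seen in replicates 1 and 2.
The fasting responses of the other 6 were not shown to differ between genotypes. The interaction for Socs3 was 0.19 with a wide 95% interval from -0.77 to 1.16, and that for Cish was -0.30 with an interval from -0.89 to 0.30 (edgeR adjusted p = 0.824 and 0.527). For Stat3 it was 0.10 with an interval from -0.09 to 0.29 (edgeR adjusted p = 0.492).

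Receptor and inhibitor were also compared within each library, which needs no scaling between libraries. There were 36.0 ± 9.0 Socs3 reads per 100 Lepr reads in fed wild type (SD, n = 5), with libraries from 26.2 to 50.2. Fed cKO had 8.38 ± 3.0 (5.57 to 12.4), fasted wild type 1.17 ± 0.91 (0.334 to 2.57) and fasted cKO 0.586 ± 0.29 (0.196 to 0.848). The 5 fed cKO libraries lay below all fed wild-type libraries and above all fasted ones, while the fasted genotypes overlapped. The separation of fed cKO follows from the levels of Lepr and Socs3 given above, which each set it apart in opposite directions. It is therefore no further support for those differences. Cish reads per 100 Lepr reads averaged 42.0 and 18.9 in fed wild type and cKO, and 4.62 and 3.21 when fasted. Stat3 reads per 100 Lepr reads averaged 421, 218, 66.4 and 70.8 in the same order, so reads of the transcription factor outnumbered those of its receptor in both fed groups and not in the fasted ones. Neither Cish nor Stat3 passed between fed genotypes, so their lower ratios in fed cKO mainly restate its higher Lepr. All of these are ratios of reads, in which a longer transcript counts for more. The exons of all annotated transcripts, merged, span 9.53 kilobases in Stat3, 7.05 in Lepr, 6.42 in Cish and 2.89 in Socs3.

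**Figure D4:**
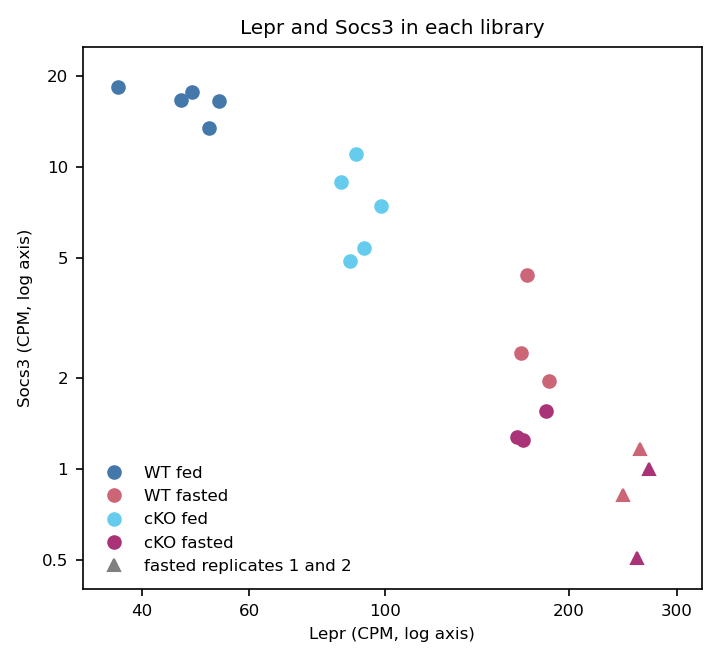
Socs3 against Lepr in each of the 20 libraries (CPM, log axes), coloured by group; triangles are fasted replicates 1 and 2. Fed cKO (84.8 to 98.4 CPM Lepr, 4.89 to 11.1 CPM Socs3) lies between fed wild type and the fasted libraries, and the fasted libraries of both genotypes overlap in Lepr.

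The genes whose pattern over the 20 libraries was most like that of Lepr were sought among 10185 well-expressed genes by the root mean square (RMS) difference in centred log2 CPM. They were Mast4 (RMS difference 0.15), Rbp4 (0.17), Ogfrl1 (0.19) and Asap1 (0.20). Mast4, which encodes a protein kinase, stood at 29.6 CPM (wild type) and 50.1 CPM (cKO) in fed mice and rose to 117 and 121 CPM in fasted ones. These levels follow the order seen for Lepr, with fed cKO between fed wild type and the fasted groups, because Mast4 was picked for that likeness. For Socs3 the nearest genes were Rph3a (0.58), Bhlhe40 (0.62), Chrna4 (0.63) and Dppa1 (0.64). Rph3a, which encodes a synaptic vesicle protein, stood at 28.2 and 19.2 CPM in fed wild type and cKO and fell to 4.93 and 4.42 CPM in fasted ones. The differences for Socs3 were larger than those for Lepr, and both lists describe likeness in these libraries alone.

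Other genes of the pathway were counted in 6 lists. Receptors and receptor-associated genes had 9 tested of 11, of which 4 rose and 3 fell on fasting in wild type and 5 rose and 1 fell in cKO. The shares over all tested genes for these and the following lists are 29.6% up and 31.3% down in wild type and 26% up and 27% down in cKO, and no list is called particular from its counts. Ghr, the growth hormone receptor, rose from 258 ± 8.9 to 599 ± 42 CPM (SD, n = 5 each) in fasted wild type, a log2 change of 1.21 ± 0.07 (edgeR adjusted p = 6.73e-15), and by 0.89 in cKO. Prlr, the prolactin receptor, rose by 1.34 ± 0.12 in wild type (edgeR adjusted p = 3.39e-10) and by 0.65 in cKO. Leprot, which encodes endospanin 1, a regulator of how much leptin receptor reaches the cell surface, rose by 0.91 ± 0.09 in wild type (edgeR adjusted p = 1.16e-09) and by 0.66 in cKO. Il6ra, the interleukin 6 receptor, had 1 read in all 5 fed wild-type libraries together, 165 after fasting, and in cKO 25 fed and 80 fasted. It met the minimum count of the test through its fasted libraries (18 to 51 reads each in wild type and 11 to 25 in cKO). Its place among the counts of this list is therefore no support for them.

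In fed mice 3 of these 9 were higher in cKO, beside 5.87% of all tested genes. Il6ra is no support for this count either, with 0 to 1 reads per library in fed wild type and 2 to 12 in fed cKO. Prlr was at 25.5 ± 1.9 CPM in fed cKO against 13.2 ± 1.2 CPM in fed wild type (SD, n = 5 each), a log2 difference of 0.95 (edgeR adjusted p = 3.6e-06). Leprot was at 73.2 ± 3.3 CPM against 46.1 ± 1.7 CPM, a log2 difference of 0.67 (edgeR adjusted p = 6.74e-06). Both, like Lepr, were higher in fed cKO and rose on fasting, and in wild type these comparisons share the fed libraries. Leprot differed in fasted mice as well, by 0.41 (edgeR adjusted p = 0.00171).

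The other JAK and STAT genes mostly fell on fasting, 6 of 9 in wild type with 1 rise, and 3 of 9 in cKO with 1 rise. Stat5b, which acts below growth hormone and prolactin receptors, went from 30.03 ± 0.74 to 11.0 ± 2.5 CPM in wild type (SD, n = 5 each), a log2 change of -1.45 ± 0.13 (edgeR adjusted p = 8.49e-11), and by -1.29 in cKO. Jak1 was the 1 that rose, by 0.38 in wild type and 0.37 in cKO. The list's median log2 change was -1.24 in wild type and -0.47 in cKO, against -0.03 over all genes in each.

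Adaptors and downstream kinases, 17 tested genes, had 1 rise and 3 falls on fasting in wild type and 1 rise and 7 falls in cKO, with medians of -0.10 and -0.14. In wild type this is a smaller share than the 60.9% called over all tested genes. Pik3r1, a regulatory subunit of PI 3-kinase, rose from 52.8 ± 5.4 to 81.5 ± 12 CPM in fasted wild type (SD, n = 5 each). In fed cKO Pik3r1 was at 81.4 ± 6.3 CPM, a log2 difference of 0.62 from fed wild type (edgeR adjusted p = 2.25e-05). The remaining SOCS, PIAS and phosphatase genes, 12 tested, had 2 rises and 5 falls in fasted wild type and 3 falls in fasted cKO, the latter close to the 27% of all tested genes that fell there. Socs1, another inducible JAK inhibitor, went from 11.6 ± 1.2 to 4.11 ± 1.6 CPM in wild type (SD, n = 5 each), a log2 change of -1.49 ± 0.24 (edgeR adjusted p = 4.88e-06), and by -2.15 in cKO. In fasted mice Socs1 was lower in cKO by 1.06 on the log2 scale.

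Known STAT target genes outside the SOCS family went both ways, with 7 rises and 4 falls among 14 in fasted wild type and 4 rises and 5 falls in fasted cKO, beside 29.6% and 31.3% of all tested genes in wild type and 26% and 27% in cKO. Irf9, an interferon-response factor, fell by 1.90 on the log2 scale in wild type (edgeR adjusted p = 1.83e-15) from 70.4 ± 3.4 to 19.0 ± 2.8 CPM (SD, n = 5 each). Bcl3 fell from 12.1 ± 0.97 to 3.43 ± 0.94 CPM in wild type, a log2 change of -1.82, and was at 6.49 ± 1.2 CPM in fed cKO, a log2 difference of -0.89 from fed wild type. Myc went the other way on fasting in wild type, from 8.19 ± 1.6 to 22.6 ± 5.0 CPM (SD, n = 5 each). It was at 15.7 ± 4.1 CPM in fed cKO, higher than in fed wild type by 0.94 on the log2 scale, so Bcl3 and Myc both lay between fed and fasted wild type there. Here too the comparisons share the fed wild-type libraries, and the share over all genes was not counted. Of the 4 genes that leptin is known to control in these neurons (Agrp, Npy, Bsx and Foxo1), 3 rose on fasting in each genotype, beside 29.6% and 26% of all tested genes: Agrp rose by 1.71 and Npy by 1.70 in wild type. The other, Bsx, a transcription factor needed for Npy and Agrp expression, fell by 1.05 in cKO (edgeR adjusted p = 3.82e-05) and had a log2 difference of -0.04 in wild type with a 95% interval from -0.42 to 0.34.

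**Figure D5:**
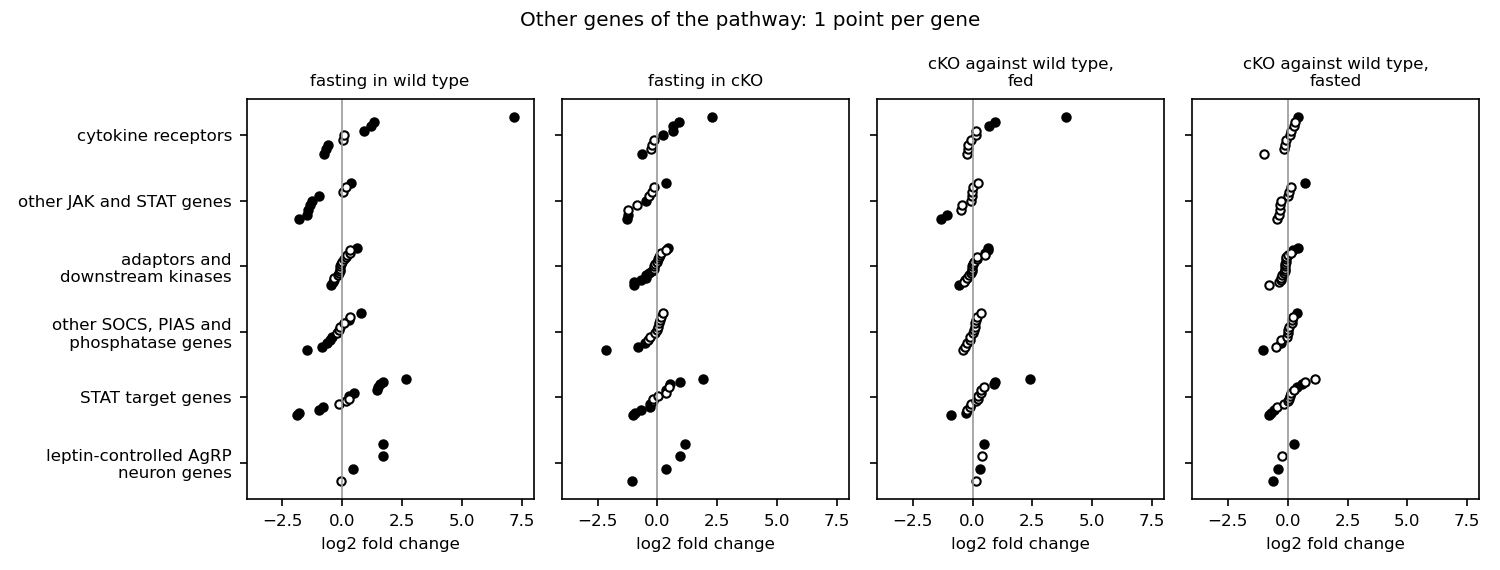
Log2 fold changes of the tested genes of the 6 other pathway lists (rows) in both fasting and both genotype comparisons (panels), with 1 point per gene; filled points passed at an edgeR adjusted p under 0.05. The points are spread on both sides of 0 in most lists, with the JAK and STAT genes mostly below 0 in fasted wild type (median -1.24), and the point far to the right in the panels for fasting in wild type and for fed genotypes is Il6ra, with 1 read in fed wild type.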

How the data were processed

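Libraries were made from sorted cells with a SMART-seq v4 kit (15 amplification cycles) and Nextera XT, neither of which marks strand, per the labels' protocols. Per the submitters' processing notes, Trimmomatic 0.36, HISAT2 2.1.0, featureCounts (Subread 1.6.2), DESeq2 1.20.0 and the GRCm38 (mm10) genome were used. The annotation and strand setting behind the counts were not given in the sources used here. Raw counts per gene, as deposited by the authors, were used for every value. The authors also deposited a normalized signal, in which each count is divided by 1 size factor per library, and it was used only to check the counts.

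Counts of 20 libraries were fitted with edgeR 4.0.16 in R 4.3.3 as 4 group means, with TMM scaling, the edgeR filter (minimum count 10, minimum total 15), the quasi-likelihood test and Benjamini-Hochberg adjustment over 13237 genes in each of 5 comparisons. CPM use TMM scaling. Lengths and positions came from GENCODE M21, whose symbols matched 95.4% of the table's names, and promoter sequences from RefSeq. Where a library had no read, up to 3 counts (0.207 to 0.387 CPM) are allowed, for counting error only, since amplified reads are not independent molecules. The steps were tested on simulated counts. No replicate pair agreed within sampling noise (chi-square per degree of freedom at least 3.36).

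The genes, the pathway and cell type lists and the split of fasted replicates were chosen with earlier results of these data known. All 9 genes were open to naming, as were up to 4 genes per list and comparison with the smallest p past the threshold, and the 4 genes most like Lepr and Socs3 with a mean log2 CPM of at least 2. Values of a named gene in other comparisons are also given. The alternatives were other scalings, filters and models, DESeq2 1.42.0, a term for replicate number, GC and length offsets, either set of fasted replicates, and each library left out in turn. The result for 1 gene of the pathway lists is not reported here.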

Additional observations from a re-analysis of the deposited data

Results flagged for a closer look

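In fed wild type, Stat3 in replicate 5 was at 211.6 CPM, away from 188.6 to 194.3 CPM in the other 4 libraries, and Ptpn1 in replicate 4 was at 32.4 CPM, away from 35.97 to 36.9 CPM. These were 2 of 36 gene and group sets of 5 libraries checked by Dixon's test, and chance gives about 1 in 20.

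The response to fasting differed between genotypes for Lepr (interaction -0.915 on the log2 scale), Socs2 (-0.5447) and Ptpn2 (0.4215) by edgeR's test of the difference itself. That for Socs2 was seen in fasted replicates 1 and 2, and not with replicates 3 to 5 alone (-0.1572).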

How the results depend on the processing

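Of 513 values recomputed under 1 changed setting, 480 kept their direction and their side of the threshold. With 1 library left out, 510 of 540 did. Lepr, Sh2b1, Stat3, Socs3, Cish and Ptpn2 kept their fasting calls in both genotypes, and Lepr and Socs3 their fed genotype calls, under every setting and omission run.

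The replicate numbers in the labels do not state a pairing, and the correlations of same-numbered libraries ran from -0.045 to 0.131, with some libraries closest to another number. A term for replicate number (a replicate block) ended the Jak2 call in cKO (-0.3311, adjusted p = 0.0537) and gave 1 gene higher in fasted cKO, Ptpn2 (0.2174).

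No called value turned direction. Socs2, which had not passed for fasting in wild type, turned with fasted replicates 3 to 5 (-0.1823). Ptpn1 turned for fasting in wild type with DESeq2 size factors (0.006778), GC and length offsets (0.2037, and 0.203 with the replicate block), only the groups compared (0.001542), fasted replicates 1 and 2 (0.006194) and DESeq2 (0.00463). With GC and length offsets, Ptpn1 also turned for fasting in cKO (0.06131, and 0.05889 with the block) and in the fasted genotype comparison (0.02075 and 0.01775). The fasted Lepr difference turned with upper-quartile scaling (-0.019), GC and length offsets (-0.05585, and -0.06491 with the block) and fasted replicates 3 to 5 (-0.02611). Fasted replicates 1 and 2 alone turned the fasted genotype differences of Jak2 (-0.2356) and Ptpn1 (0.07747) and the interactions of Jak2 (-0.1817) and Cish (0.04562).

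With GC and length offsets, 0 of the 9 genes had a positive interaction by edgeR. With only the groups compared, 2952 genes differed between fed genotypes (1518 higher and 1434 lower, 2 of the 9 lower) and 1352 between fasted ones (731 and 621, 0 of the 9 lower). Fasted replicates 1 and 2 alone gave 1682 genes between fasted genotypes, 668 of them lower. Replicates 3 to 5 alone gave 2 of the 9 lower there, and 3603 interactions (1810 positive and 1793 negative, 1 of the 9 negative). DESeq2 gave 2 of the 9 lower in fasted cKO. The causes of these moves were not tested.

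With each library left out in turn, values ranged as follows. In the fed genotype comparison Sh2b1 ranged from -0.06059 to 0.08441, Stat3 from -0.01361 to 0.06069, and 905 to 1022 genes were called (567 to 640 higher, 332 to 382 lower). For fasting in wild type Socs2 ranged from -0.05884 to 0.1291 and Ptpn1 from -0.04637 to 0.001587, and for fasting in cKO 5 to 6 of the 9 fell. In the fasted genotype comparison Lepr ranged from -0.08395 to 0.1213 and Ptpn1 from -0.1343 to 0.0114, with 2030 to 3193 genes called (1169 to 1738 higher, 861 to 1455 lower), 0 to 1 of the 9 higher and 0 to 3 lower. The interaction ranged from -0.01063 to 0.6215 for Socs3 and from -0.4603 to 0.005465 for Cish. No scaling moved the median of all genes by over 0.1.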
